A study of Homo sapiens with 6 samples.

Results

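The genes examined here are 44 human genes of type I interferon signalling and of the interferon response outside the OAS and IFIT families, chosen by name: the interferon IFNB1, its receptor and kinases, STAT and IRF factors, sensors of foreign nucleic acid, and the genes that interferon induces. A gene counted as present where a probe set carried its symbol, or another symbol of the same Entrez gene. All 44 were on the array, with 100 probe sets of 45033, among 23595 genes in all. RNA came from HEK293 cells, an established line of human embryonic kidney origin, and was hybridised to 6 single-colour NimbleGen arrays. Every culture was transfected with an shRNA, a short hairpin RNA that lowers its target transcript, for about 40 hours and then kept for 7 hours in conditioned medium. The series' design text also calls this step siRNA transfection. There were 3 groups of 2 arrays. Cells with the control shRNA were kept in control medium (called control medium below) or in Wnt3a medium (called Wnt3a medium), and cells with the SET8 shRNA were all kept in Wnt3a medium (called SET8 shRNA). SET8, whose gene is now named KMT5A, is the enzyme that adds a single methyl group to a lysine of histone H4. The SET8 shRNA in control medium was not analysed here, so whether the response to Wnt3a differs between the shRNAs could not be tested. Whether replicates were separate cultures is not stated in the labels, so each p-value here reflects how far these arrays of a group lie apart, and that spread may be technical.

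Cells sense foreign RNA or DNA through RIG-I-like receptors, PKR, IFI16 and related proteins, which switch on IRF3 and IRF7 and so the gene for interferon beta. Secreted interferon binds IFNAR1 and IFNAR2, whose kinases TYK2 and JAK1 phosphorylate STAT proteins. STAT2 and IRF9 belong to the factor ISGF3, which binds the interferon-stimulated response element (ISRE) of a large set of target genes. Many cultured cells hold these targets at a low tonic level with no added interferon. HEK293 cells are known for weak DNA sensing, and they carry adenoviral genes, which are known to dampen interferon signalling.

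Values are log2 intensities, and a difference is the later-named group subtracted from the first. Replicate arrays correlated at 0.955 to 0.978 across probe sets. The shRNA target, KMT5A, had a log2 difference of -1.56 (SE 0.34) between SET8 and control shRNA in Wnt3a medium, and its limma p was 0.236 when adjusted (Benjamini-Hochberg) across 23808 probe sets. It read 11.20 and 10.53 with control shRNA against 8.97 and 9.65 with SET8 shRNA, so its groups did not overlap. Of the 44 genes, 34 had a main probe set (the one with the highest mean) above the median of its array on at least 2 of the 6 arrays and were tested. The other 10, namely IFNB1, CXCL10, DDX58, IFIH1, HERC6, MX1, MX2, RSAD2, IFI44 and IFI44L, were too dim and are given as values with no test. RNA came from whole cultures, so fewer cells with a transcript and less of it per cell cannot be told apart.

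The comparison of SET8 with control shRNA, both in Wnt3a medium, asks which genes differ between the shRNAs in that medium. The factors IRF7 and IRF9 and the interferon-induced genes IFITM1, IFI6, IFI27 and IFI35 had means 1.90-fold to 2.76-fold lower with SET8 shRNA, while IFNAR1, JAK1, IRF3 and several other induced genes did not stand lower. None of the 34 genes passed limma's Benjamini-Hochberg adjusted p of 0.05, nor did any probe set on the array (0% called, with 1705 probe sets at an unadjusted p under 0.05). The smallest adjusted p from limma among them was 0.300, for IFI35. At an unadjusted p under 0.05, 6 of 34 were lower (IRF7, IRF9, IFITM1, IFI6, IFI27 and IFI35) against 3.69% of all genes tested, and 0 were higher against 3.68%. In 8 of the 44 genes both SET8 arrays lay at least 1.5-fold below both control shRNA arrays, against 1.56% of all genes on the array. These were the same 6 with RSAD2 and IFI44, both dim on every array. In 1 gene, HERC6, also dim, they lay at least 1.5-fold above, against 1.47%. Without replicate 2 of Wnt3a medium, 14 genes lay below in this way, and leaving out any 1 of these 4 arrays gave 2 or 3 genes above. Without replicate 2 of SET8 shRNA, 1 gene was higher at an unadjusted p under 0.05.

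Over all 44 genes, 25 had a lower and 19 a higher mean with SET8 shRNA, where 50.1% of all genes of the array were lower. The median log2 difference was -0.15 against -0.0008 over all genes of the array. Without replicate 2 of Wnt3a medium that median was -0.30. By role, the median was 0.12 for the 3 ligand and chemokine genes, 0.26 for the 4 receptors and kinases, -0.35 for the 6 STAT and IRF factors and -0.23 for the 5 sensors. It was 0.03 for the 6 genes of the ISG15 system, -0.59 for the 9 antiviral effectors, 0.12 for both nuclear body genes and -0.80 for the other 9 interferon-induced genes. These medians count the dim genes. Over tested genes alone the median was -0.23 for the antiviral effectors, -0.15 for the other interferon-induced genes and -0.35 for the STAT and IRF factors, so the order of the roles changes with the dim genes. No test between the roles was made.

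**Figure D1:**
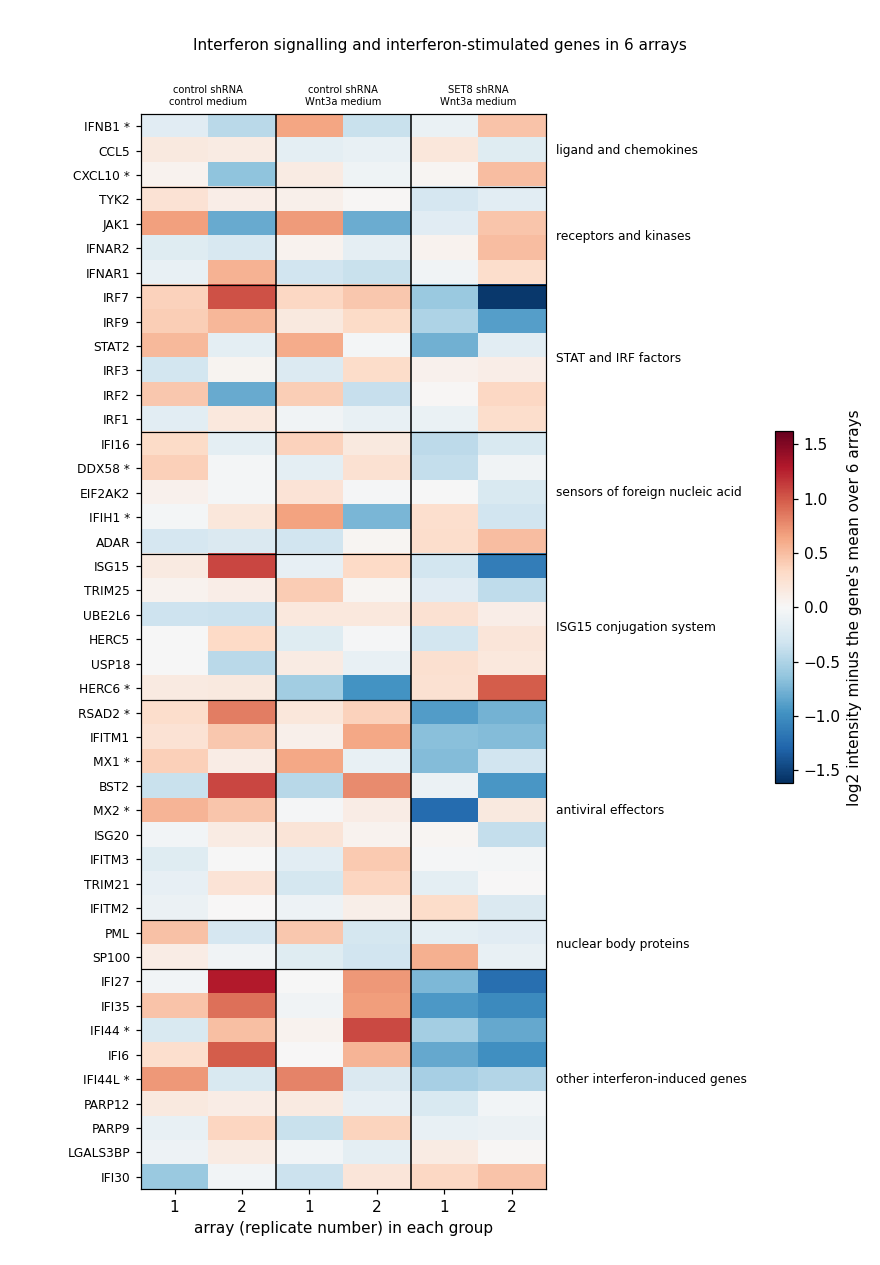
Log2 intensity of the 44 genes on the 6 arrays, each gene shown as its deviation from its own mean over the arrays (colour scale in log2 units), with genes ordered by role and an asterisk for the 10 dim genes that were not tested. IRF7, IRF9, RSAD2, IFITM1, IFI6, IFI27 and IFI35 are low on both SET8 shRNA arrays, and JAK1, IRF2 and BST2 differ more between replicates than between groups.

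Promoter sequence is shown for genes whose values are described below, because the ISRE and the gamma-activated sequence (GAS) are the elements through which interferon acts. Stretches upstream of the start site come from RefSeq (GRCh38.p14), written along the gene's strand with matches in capitals. The first 7 hold the ISRE core (GAAA, any 2 bases, GAAA), on the opposite strand in IFI44 and in the first match of IFI27. The last 2 hold the GAS core TTCNNNGAA, which reads the same on both strands. Both are of genes low with SET8 shRNA. IRF1 and IFNB1, not printed, also hold it and had SET8 differences of 0.19 and 0.04. IFI6, IFI27, IFITM1 and IFI44 had low values with SET8 shRNA, IFITM3 did not, and the groups of BST2 overlapped and those of ISG15 lay close.
IFI6, chr1:27672266-27672358, minus strand: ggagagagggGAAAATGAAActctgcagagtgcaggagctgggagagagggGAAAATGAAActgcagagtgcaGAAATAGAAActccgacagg
IFI27, chr14:94110618-94110660, plus strand: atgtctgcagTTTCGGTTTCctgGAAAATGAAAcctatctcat
IFITM1, chr11:313990-314019, plus strand: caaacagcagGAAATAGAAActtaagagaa
IFI44, chr1:78649761-78649788, plus strand: gcacactgagTTTCAGTTTCctttctct
ISG15, chr1:1013374-1013409, plus strand: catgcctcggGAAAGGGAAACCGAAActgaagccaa
IFITM3, chr11:320876-320922, minus strand: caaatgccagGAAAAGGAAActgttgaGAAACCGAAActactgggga
BST2, chr19:17405735-17405770, minus strand: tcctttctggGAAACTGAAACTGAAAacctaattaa
IRF9, chr14:24161192-24161220, plus strand: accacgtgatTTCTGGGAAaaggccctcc
IFI35, chr17:43006752-43006780, plus strand: aggcagggatTTCACGGAAatgaaagtgg

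IFI6 holds 3 separate ISRE cores within these 93 bases, and the 2 cores of ISG15 and of BST2 overlap each other. RefSeq promoters (250 bases before to 50 after the start) matched 35 of the 44 genes. IRF7, IRF2, IRF3, CCL5, IFNAR2, USP18, MX2, IFITM2 and PML were unmatched. The ISRE core was in 17 of 35 (48.6%), against 996 of 27305 RefSeq promoters (3.65%). The longer core with CT after the second GAAA, which overlaps it, was in 10 of 35 (28.6%) against 0.271% of all. This longer core was not among the motifs fixed in the plan. The GAS core was in 7 of 35 (20%) against 7.88%.

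Set beside the SET8 difference, 13 of the 17 genes with an ISRE core stood lower, with a median of -0.31 and a range of -1.32 to 0.23. Of the 18 without one, 9 stood lower, with a median of -0.05 and a range of -1.30 to 1.38. With the longer core, 9 of 10 stood lower, with a median of -0.78, against 13 of 25 without it, with a median of -0.10. With the GAS core, 5 of 7 stood lower, with a median of -0.92 and a range of -1.32 to 0.19. Among them IFI27, IFITM1 and BST2 also hold an ISRE core, so the splits share genes, and IFNB1 is dim. Without the GAS core, 17 of 28 stood lower, with a median of -0.15. IFITM3 carries the longer core in both of its matches and had a log2 difference of -0.15. IFI35 and RSAD2 have no ISRE core in the window and had -1.30 and -1.11, so the sets with and without it overlapped widely. A match is a string of letters in the window and does not show binding.

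**Figure D2:**
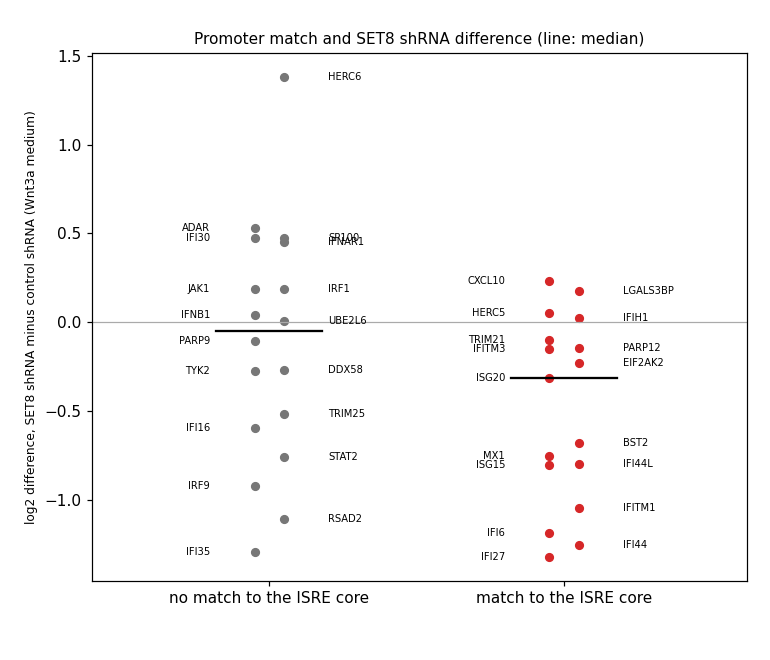
SET8 minus control shRNA log2 difference of the 35 genes with a RefSeq promoter, split by whether the ISRE core is in the 300-base window; each point is a gene and the line is the median. The medians are -0.31 with a match (17 genes) and -0.05 without (18 genes), and the points overlap over most of their range.

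Ligand genes were near the floor of the array. IFNB1, the gene of interferon beta, read 4.75 and 4.50 in control medium, 5.57 and 4.57 in Wnt3a medium, and 4.82 and 5.40 with SET8 shRNA. These are well under the array medians of 7.63 to 7.79, and the shRNA groups overlapped. CXCL10, a chemokine induced by interferon, read 4.08 to 5.23 over the 6 arrays, also below every array median. A second, equally dim IFNB1 probe set had a SET8 difference of -0.45, against 0.04 for the main one. CCL5, a chemokine for T cells, was above the median on 3 arrays and had a SET8 difference of 0.12 (SE 0.24), with -0.01 on its other probe set.

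Receptor chains and kinases were measurable in all groups. IFNAR1, a chain of the receptor, read 8.16 and 8.84 in control medium, 7.98 and 7.92 in Wnt3a medium, and 8.23 and 8.57 with SET8 shRNA. The SET8 arrays lay above the Wnt3a medium arrays and within the range of control medium, with a SET8 difference of 0.45 (SE 0.29, limma Benjamini-Hochberg adjusted p 0.878). IFNAR2, the other chain, read 9.63 and 9.57, then 9.88 and 9.68, then 9.88 and 10.33 in the same order of groups. Its difference was 0.33 (SE 0.25), and its 3 further probe sets gave 0.28, -0.20 and -0.14, so the probe sets did not share a sign.

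JAK1, the kinase bound to IFNAR2, read 10.41 and 8.93 in control medium, 10.44 and 8.95 in Wnt3a medium, and 9.56 and 10.20 with SET8 shRNA. Its replicates differed by more than its groups, and the SET8 difference was 0.19 (SE 0.61). TYK2, the kinase bound to IFNAR1, read 10.93 and 10.80, then 10.78 and 10.71, then 10.42 and 10.52. Both SET8 arrays were the lowest of the 6, but the difference was small at -0.27 (SE 0.22, limma Benjamini-Hochberg adjusted p 0.923).

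Among the transcription factors, IRF7 and IRF9 stood lower with SET8 shRNA and IRF3 did not. IRF7, the factor that amplifies interferon production, read 10.27 and 10.93 in control medium, 10.24 and 10.35 in Wnt3a medium, and 9.30 and 8.35 with SET8 shRNA. Both SET8 arrays lay below all 4 control shRNA arrays. The SET8 difference was -1.47 (SE 0.37), which is 2.76-fold lower, and the limma Benjamini-Hochberg adjusted p was 0.326. A second IRF7 probe set gave -1.06. The gene lies at 602558 to 605921 on chromosome 11 (hg18).

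IRF9, the DNA-binding subunit of ISGF3 (chromosome 14, 23700371 to 23705612), read 8.92 and 9.05, then 8.68 and 8.83, then 8.02 and 7.63. Again both SET8 arrays were below all others, and replicate 2 was under its array median, with a difference of -0.92 (SE 0.24), 1.90-fold lower, and a limma Benjamini-Hochberg adjusted p of 0.353. STAT2, its partner, read 11.22 and 10.53 in control medium, 11.29 and 10.66 in Wnt3a medium, and 9.91 and 10.52 with SET8 shRNA. The SET8 arrays were the lowest, though replicate 2 was nearly level with replicate 2 of control medium. The STAT2 difference was -0.76 (SE 0.36, limma Benjamini-Hochberg adjusted p 0.754).

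IRF3, the factor activated directly by the sensors, read 12.95 and 13.29, then 13.03 and 13.55, then 13.33 and 13.36. Its groups overlapped, with a SET8 difference of 0.05 (SE 0.27) and -0.03 and -0.01 on further probe sets. IRF1, an activator that interferon itself induces, had 0.19, and IRF2, known as its antagonist, had 0.17 (SE 0.45).

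**Figure D3:**
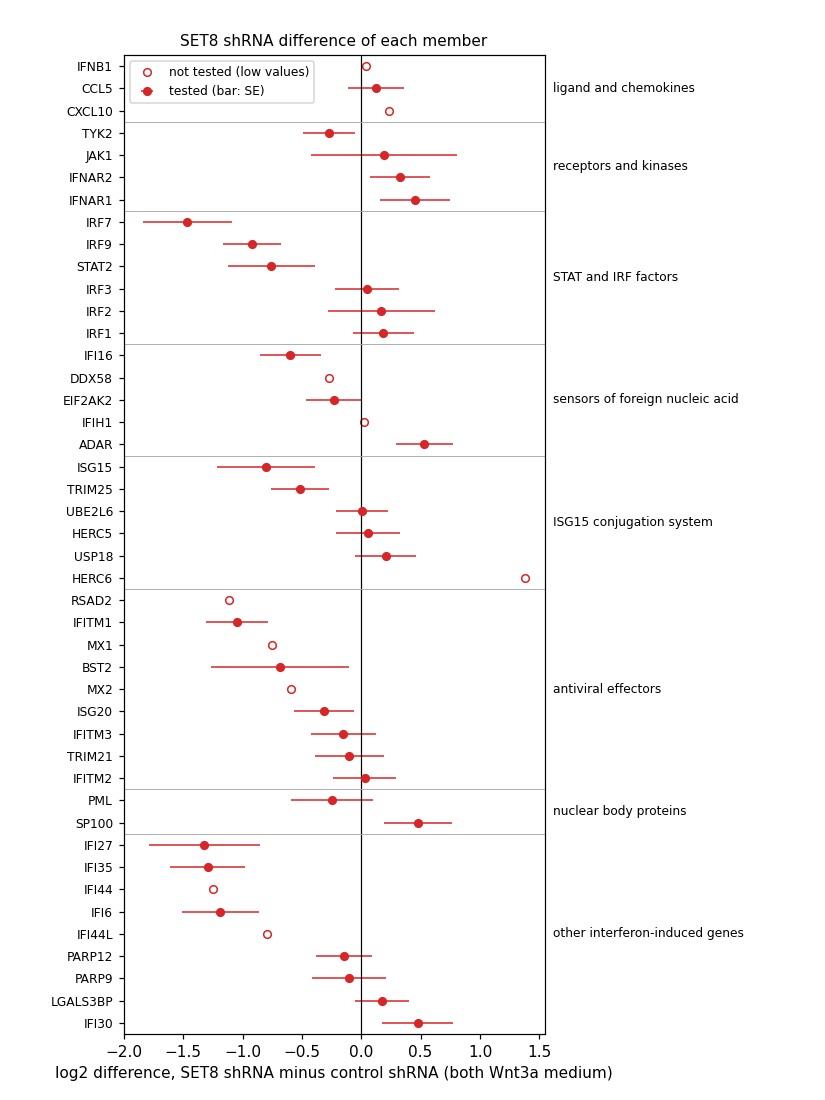
SET8 minus control shRNA difference in Wnt3a medium (log2, horizontal axis) for the 44 genes by role, with bars of 1 moderated standard error for the 34 tested genes and open circles for the 10 dim genes that were not tested. IRF7 is furthest left at -1.47 and the untested HERC6 furthest right at 1.38.

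Sensors had no shared direction. DDX58 (RIG-I, now named RIGI), a receptor for viral RNA, read 5.51 and 5.08 in control medium, 4.96 and 5.37 in Wnt3a medium, and 4.73 and 5.06 with SET8 shRNA, all below the array medians. IFIH1 (MDA5), the receptor for long double-stranded RNA, read 6.24 and 6.45, then 6.93 and 5.53, then 6.54 and 5.96. Both were dim, and their groups overlapped between the shRNAs. EIF2AK2 (PKR), a kinase that stops translation on binding double-stranded RNA, had a SET8 difference of -0.23 (SE 0.23), and its further probe sets had -0.07 and 0.11.

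ADAR, the enzyme that edits adenosine in double-stranded RNA and so keeps self RNA from the sensors, went the other way. It read 10.41 and 10.44 in control medium, 10.37 and 10.72 in Wnt3a medium, and 10.96 and 11.18 with SET8 shRNA. The SET8 arrays were the highest of the 6, with a difference of 0.53 (SE 0.24, limma Benjamini-Hochberg adjusted p 0.724). IFI16, a nuclear DNA sensor, had -0.60 (SE 0.26, limma Benjamini-Hochberg adjusted p 0.703), and its further probe sets had -0.71 and -0.68.

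ISG15 is a ubiquitin-like protein, which UBE2L6, HERC5 and TRIM25 help to attach to other proteins and USP18 removes. ISG15 itself (chromosome 1, 938775 to 939778) read 10.76 and 11.69 in control medium, 10.48 and 10.94 in Wnt3a medium, and 10.32 and 9.50 with SET8 shRNA. The SET8 arrays were the lowest, but SET8 replicate 1 was close to Wnt3a medium replicate 1. The SET8 difference was -0.80 (SE 0.41, limma Benjamini-Hochberg adjusted p 0.783), and a second probe set gave -0.71.

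UBE2L6, HERC5 and USP18 did not stand lower with ISG15. UBE2L6, the enzyme that carries activated ISG15, read 10.77 and 10.76, then 11.28 and 11.28, then 11.35 and 11.22, with a SET8 difference of 0.01. HERC5, the main ligase, had 0.05, and USP18, the protease, had 0.20. TRIM25, also known for switching on RIG-I, had -0.52 (SE 0.25, limma Benjamini-Hochberg adjusted p 0.747). Both of its SET8 arrays lay below both Wnt3a medium arrays. Its other probe set had -0.02, with a wide SE of 0.68.

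HERC6, a relative of HERC5 and its neighbour on chromosome 4 (89518914 to 89583272, beside 89597329 to 89646342), was dim and not tested. It read 6.62 and 6.62 in control medium, 5.91 and 5.49 in Wnt3a medium, and 6.72 and 7.45 with SET8 shRNA. Its SET8 arrays lay above both Wnt3a medium arrays, a difference of 1.38 or 2.61-fold, but replicate 1 was close to control medium. Another probe set of the gene gave 0.25.

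By the sign of the mean difference, 8 of 9 antiviral effectors were lower, against 50.1% of all genes. The groups overlapped in 5 of the 9, and 3 were dim and not tested. IFITM1 was the one below an unadjusted p of 0.05. IFITM1, a membrane protein that blocks viral entry, read 11.91 and 12.11 in control medium, 11.76 and 12.30 in Wnt3a medium, and 11.00 and 10.97 with SET8 shRNA. The SET8 arrays agreed closely and lay below all others. The difference was -1.05 (SE 0.26), 2.07-fold lower (limma Benjamini-Hochberg adjusted p 0.316), and a second probe set gave -1.07.

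The 3 IFITM genes are neighbours on chromosome 11 (hg18), IFITM2 at 297914 to 299392, IFITM1 at 304040 to 305271 and IFITM3 at 309668 to 311050. IFITM2 and IFITM3, which also block viral entry, had SET8 differences of 0.03 and -0.15 (SE 0.27). The other probe set of IFITM2 had -0.04, and the 4 probe sets of IFITM3 ranged from -0.27 to 0.18. The sequences of this family are close to each other, so their probe sets can share signal. The difference between IFITM1 and its neighbours was not tested.

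RSAD2 (viperin), a radical SAM enzyme that makes a chain-terminating nucleotide, was dim and not tested. It read 6.91 and 7.44 in control medium, 6.81 and 6.99 in Wnt3a medium, and 5.72 and 5.85 with SET8 shRNA. Both SET8 arrays lay below all 4 others, a difference of -1.11, but all 6 lay below their array medians, and a second probe set had -0.53. The dynamin-like GTPases MX1 and MX2, adjacent on chromosome 21, were also dim, with differences of -0.76 and -0.59.

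BST2 (tetherin), which holds budding virus at the cell surface, had -0.68 (SE 0.58), but its control shRNA replicates differed by more than 1 log2 unit and overlapped the SET8 arrays. ISG20, an RNA exonuclease, had -0.31. TRIM21, an antibody receptor inside the cell, had -0.10. PML and SP100, the scaffolds of nuclear bodies, had -0.25 (SE 0.35) and 0.48 (SE 0.29). The 18 probe sets of PML ranged from -0.56 to 0.06.

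Of the other interferon-induced genes, 7 of 9 had lower means with SET8 shRNA, against 50.1% of all genes, and 2 were dim and not tested. IFI35, a leucine zipper protein that partners NMI (chromosome 17, 38412350 to 38419999), read 11.09 and 11.53 in control medium, 10.57 and 11.32 in Wnt3a medium, and 9.70 and 9.60 with SET8 shRNA. Its SET8 arrays were close together and below all 4 others. The difference was -1.30 (SE 0.31), 2.45-fold lower (limma Benjamini-Hochberg adjusted p 0.300).

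IFI27, a small mitochondrial protein (chromosome 14, 93646913 to 93652783), read 10.36 and 11.68 in control medium, 10.38 and 11.10 in Wnt3a medium, and 9.67 and 9.17 with SET8 shRNA. Both SET8 arrays were lowest, and the control shRNA replicates were widely spread. The difference was -1.32 (SE 0.47), 2.50-fold lower, with a limma Benjamini-Hochberg adjusted p of 0.583, and a second probe set gave -1.49. IFI6, its relative (chromosome 1, 27865169 to 27871262), read 11.99 and 12.69, then 11.71 and 12.27, then 10.88 and 10.72. The SET8 arrays again lay below all others, at -1.19 (SE 0.32), 2.28-fold lower (limma Benjamini-Hochberg adjusted p 0.363), and a second probe set gave -1.18.

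IFI44 and IFI44L, neighbouring genes on chromosome 1, were dim and not tested. IFI44 read 5.47 and 6.21 in control medium, 5.77 and 6.79 in Wnt3a medium, and 5.16 and 4.89 with SET8 shRNA. The SET8 arrays were the lowest, with a difference of means of -1.25, but they lay far below the array medians, near the floor, so no fold is given. IFI44L had -0.80, and its further probe sets -1.02 and -0.90.

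IFI30, a lysosomal thiol reductase of antigen processing, stood higher. It read 11.84 and 12.40 in control medium, 12.10 and 12.65 in Wnt3a medium, and 12.78 and 12.91 with SET8 shRNA. The SET8 arrays were the highest of the 6, with a difference of 0.47 (SE 0.30, limma Benjamini-Hochberg adjusted p 0.866). LGALS3BP, a secreted galectin ligand, had 0.18. PARP9 and PARP12, members of the ADP-ribosyltransferase family, had -0.11 and -0.15, and the other probe set of PARP9 had 0.35.

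**Figure D4:**
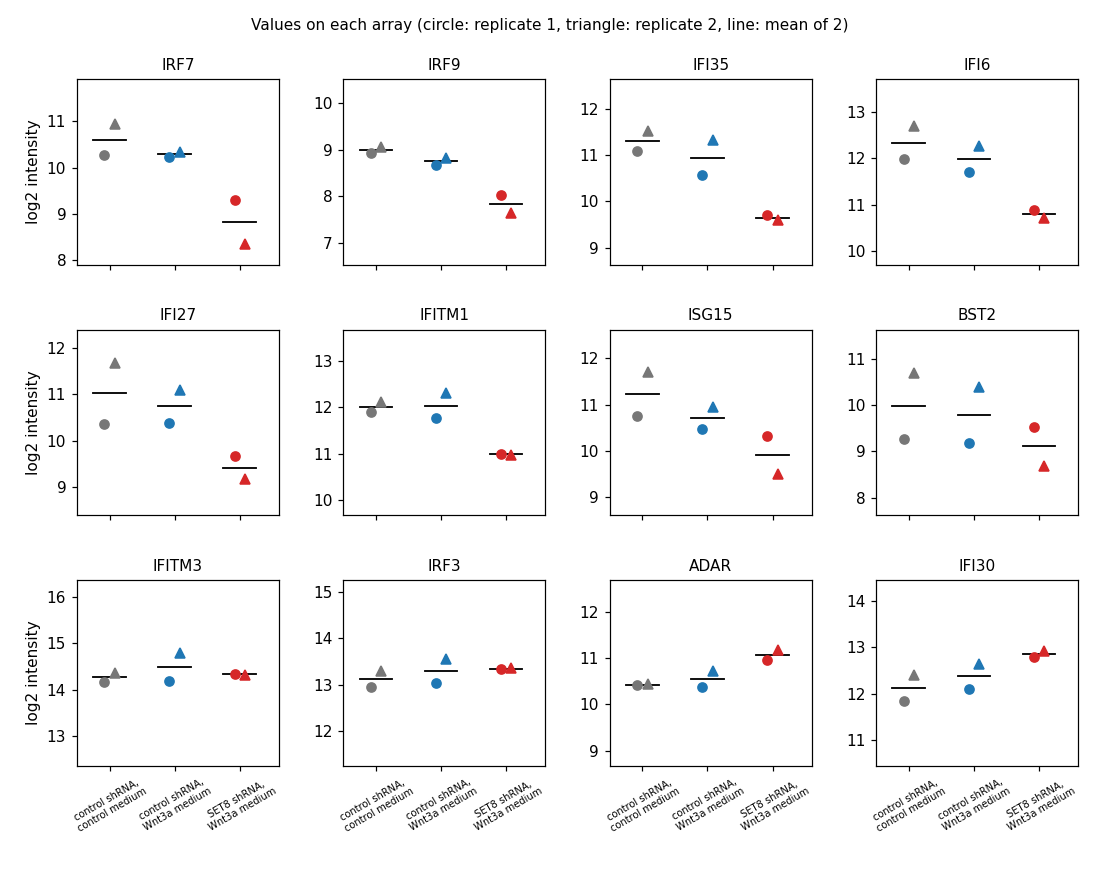
Log2 intensity on each array (points) for genes described in the text, in the 3 groups of 2 arrays, with the group mean as a line. The SET8 shRNA arrays of IRF7, IRF9, IFITM1, IFI6, IFI27 and IFI35 lie below all 4 control shRNA arrays, while those of IRF3 and IFITM3 lie among them.

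Of the 29 genes with several probe sets, 20 had 1 sign over all of them in the SET8 comparison and 9 had both. For Wnt3a against control medium, 14 had 1 sign and 15 had both. In control medium and in Wnt3a medium, replicate 2 exceeded replicate 1 for IRF7, IRF9, IFITM1, IFI6, IFI27, IFI35, ISG15 and BST2. With SET8 shRNA, replicate 2 was the lower array for each of them, by 0.96 for IRF7 but only 0.03 for IFITM1. IFITM2, IFITM3 and the dim IFI44 ran the same way. These genes were named after their values were seen, and the part of any shift shared by same-numbered arrays was not tested. Over the 44 genes, replicate 2 was higher in 25, 21 and 23, in the order control medium, Wnt3a medium and SET8 shRNA.

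The comparison of Wnt3a with control medium, both with control shRNA, asks how these genes differ between the media after 7 hours. Their levels were close between the media, with 23 of 44 lower, 21 higher and a median log2 difference of -0.02 against 0.02 over all genes. Of all genes, 47.2% were lower. None passed limma's Benjamini-Hochberg adjusted p of 0.05 (0% of probe sets called, with 510 at an unadjusted p under 0.05). At an unadjusted p under 0.05, 0 of 34 were lower against 0.567% of genes tested, and 1 was higher against 1.73%. That gene was UBE2L6, with 0.52 (SE 0.22). HERC6 was the 1 gene with both arrays at least 1.5-fold lower, at -0.92 and untested, against 0.975% of all genes. Its other probe set, also dim, had 0.32. By that fold 0 genes were higher, against 1.28%. UBE2L6 lost its unadjusted p under 0.05 with any 1 array left out. Without replicate 1 of control medium, 3 genes were lower at that p and 3 by the fold; without replicate 1 of Wnt3a medium, 2 were lower by the fold, and without replicate 2, 1 was higher. The median was -0.06 without either array of Wnt3a medium.

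The genes lower with SET8 shRNA at an unadjusted p under 0.05, and ISG15, had Wnt3a differences smaller in size than their SET8 differences. These were -0.31 for IRF7, -0.24 for IRF9, 0.02 for IFITM1, -0.35 for IFI6, -0.28 for IFI27, -0.37 for IFI35 and -0.51 for ISG15. All but that of IFITM1 were below 0, and their SEs were 0.24 to 0.47. IFNAR1 had -0.55, the lowest of the receptors and kinases, and its further probe sets had -0.41 and 0.01. The Wnt3a and SET8 comparisons share the 2 arrays of control shRNA in Wnt3a medium, which enter them with opposite sign. By their main probe sets, HERC6 and IFNAR1 were low on these arrays, lower for Wnt3a and higher for SET8 shRNA. The part of the shared arrays in this was not tested.

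The third comparison set the SET8 shRNA arrays against the control medium arrays, so shRNA and medium differ together and the Wnt3a medium arrays take no part. Here 28 of 44 were lower and 16 higher, with a median of -0.22 against 0.01 over all genes, of which 49.0% were lower. None of the 34 tested passed limma's Benjamini-Hochberg adjusted p of 0.05, against 0.0504% of all probe sets (12 called, and 2512 at an unadjusted p under 0.05). At an unadjusted p under 0.05, 7 were lower against 4.42% of genes tested, namely ISG15 and the 6 of the SET8 comparison, and 3 were higher against 6.47%, namely ADAR, UBE2L6 and IFI30. The comparison shares the SET8 arrays with the one above and is no independent repeat of it.

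In this comparison IFI35 had -1.66 (SE 0.31), 3.16-fold lower, and the smallest adjusted p of the genes (limma, Benjamini-Hochberg, 0.111). With the 4 arrays of the comparison alone in the model, IFI35 passed, with a limma Benjamini-Hochberg adjusted p of 0.0296. Over all alternatives that adjusted p was 0.0184 to 0.700. IRF7 had -1.78 (3.43-fold lower), IFI6 -1.54 (2.90-fold) and IRF9 -1.16 (2.23-fold), each with a limma Benjamini-Hochberg adjusted p of 0.136. IFI27 had -1.60 (3.03-fold), IFITM1 -1.02 and ISG15 -1.32 (2.49-fold), with limma Benjamini-Hochberg adjusted p of 0.263, 0.201 and 0.297. Both arrays were at least 1.5-fold lower for 7 genes, which were IRF7, IRF9, RSAD2, IFITM1, IFI6, IFI27 and IFI35, against 2.12% of all genes, and at least 1.5-fold higher for 0, against 3.15%. Without replicate 2 of control medium, 11 genes were lower and 1 higher in this way, and without replicate 1 of control medium or of SET8 shRNA 4 were higher. The higher genes ADAR, UBE2L6 and IFI30 had 0.65, 0.52 and 0.73, with limma Benjamini-Hochberg adjusted p of 0.397, 0.465 and 0.456. Leaving out any 1 array of control medium or SET8 shRNA left 0 or 1 higher gene at an unadjusted p under 0.05.

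Other genes of the pathway were taken from lists. Of 24 antiviral effectors outside the 44 genes, 12 were tested and 0 passed limma's Benjamini-Hochberg adjusted p in the SET8 comparison. At an unadjusted p under 0.05, 3 were lower against 3.69% of genes tested and 1 was higher against 3.68%. The 3 lower genes passed the filter on dim probe sets through control shRNA arrays alone, so their count supports nothing, and their SET8 values lie below the array medians. IFIT1, which binds viral RNA caps, read 8.37 and 8.03 in Wnt3a medium and 6.08 and 6.10 with SET8 shRNA. IFIT3, its partner, read 7.64 and 7.13, then 5.50 and 5.91, all below the array medians. OAS1, which makes the activator of RNase L, read 7.12 and 4.96 with SET8 shRNA, so these arrays lay far apart, below both arrays of Wnt3a medium. In these genes the groups did not overlap. OAS3, of the same enzyme family and bright on all arrays, had 0.86. All 24 had a median of -0.22, with 17 lower, against 50.1% of all genes.

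Of 23 sensing and signalling genes, 18 were tested, and at an unadjusted p under 0.05, 0 were lower and 2 higher, against the same shares of all genes, with a median over all of 0.06. TICAM1, the adaptor of TLR3, had 1.12 (limma Benjamini-Hochberg adjusted p 0.582), SOCS3, a feedback inhibitor of JAK kinases, 0.63, IRF4, a lymphoid factor, -0.42, and IFNGR1, a chain of the interferon gamma receptor, -0.49. Of 12 NF-kB target genes, 11 were tested, and the median was 0.08. CCL2, a monocyte chemokine, read 8.78 and 8.78 in Wnt3a medium and 9.97 and 10.25 with SET8 shRNA. Its difference was 1.33 (limma Benjamini-Hochberg adjusted p 0.193), opposite in sign to IRF7, IRF9, IFITM1, IFI6, IFI27 and IFI35. RELB, IER3 and CXCL8 had 0.69, 0.50 and 0.64.

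Cell type markers were read beside these values. Of 10 genes that mark HEK293 cells as an embryonic kidney line with epithelial and neuronal features, 9 were above the filter and PAX8 was not, and their SET8 median was -0.04. Those with the smallest p were NEFL (0.64), LHX1 (0.60), NEFM (-0.46) and EPCAM (0.49). Their summed intensity was 54357 and 57165 in control medium, 55732 and 58811 in Wnt3a medium, and 60046 and 59700 with SET8 shRNA.

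Of 12 leukocyte markers, 4 passed the filter, namely CD68, CD79A, LAPTM5 and CD14, and 8 were below the array median on every array, among them PTPRC, the defining marker (CD45), SPI1 and CD3E. CD68 read 10.08 and 9.79 in Wnt3a medium and 8.65 and 9.07 with SET8 shRNA, a difference of -1.07 (limma Benjamini-Hochberg adjusted p 0.299). CD79A, LAPTM5 and CD14 had -0.33, 0.06 and 0.02. The summed intensity of the 12 was 2162 and 2307, then 2288 and 2293, then 1814 and 1677, so it was lower with SET8 shRNA. CD68 was the 1 tested marker with groups at least 1.5-fold apart, while 7 of the 12 had higher means with SET8 shRNA and the list's median was 0.04. The part of these markers in the result was not tested.

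Of 10 fibroblast markers 3 passed, with SET8 differences of -0.50 for COL1A1, -0.39 for COL3A1 and 0.14 for FBLN1. Their summed intensity was 16505 and 14347, then 16107 and 14777, then 13459 and 15658, with overlapping groups. COL1A1 and FBLN1 make up most of this sum. Over the 10 genes, mostly dim, the SET8 median was -0.05, while 8 were lower for Wnt3a (median -0.99, 5 of them at least 1.5-fold lower in both arrays) and 8 in the third comparison (median -1.05, 4 of them so). The part of these markers in the values above was not tested.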

How the data were processed

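Total RNA of 6 HEK293 samples was labelled with Cy3. The deposited values are linear intensities, 1 for each probe set of an array, made by the authors with RMA per the submitters' processing notes. The RMA version and settings are not given in the sources used here. A table of the whole series repeats these values (largest difference 0). Probe positions refer to hg18 per the file headers. The log2 of the intensity was used, without an offset. Of 45033 probe sets, nearly all with 3 probes, 38916 (86.4%) were matched to a RefSeq gene table by Entrez ID. Probe sets above the array median on at least 2 of 6 arrays (23808, leaving 21225) entered 1 limma 3.58.1 model (R 4.3.3, lmFit and eBayes, 3 groups, 3 residual and 4.32 prior degrees of freedom, prior SD 0.282). Benjamini-Hochberg adjustment ran over all 23808, with a threshold of 0.05. The model was tested on simulated data.

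A gene is represented by its probe set with the highest mean, and further probe sets are given where they disagree in sign in the SET8 comparison. Shares of all genes use the same choice (13054 genes tested). Values on every array are given for genes at an unadjusted p under 0.05 in any comparison or with groups at least 1.5-fold apart, and for 10 signalling genes whatever their values. The 4 genes with the smallest p are named from each further list. The members and lists were chosen with earlier results of these data known, so no test over a list was made. A 2 against 2 exact permutation test cannot give a p under 0.333, and none is reported. The number of arrays limits the precision. Motifs were searched on both strands of 300-base RefSeq promoters (GRCh38.p14), and those printed lie wholly upstream of the start. Same-numbered arrays deviated from their group means with correlations of 0.748 between the media, and -0.294 between SET8 shRNA and either. The numbers did not run alike in all groups, so they were not taken as pairs in the main model. Between the media they did run alike, and a paired fit of the media arrays alone was not made. Alternatives covered the filter, normalisation, offset, prior, arrays in the model, replicate block, probe set choice and single arrays.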

Additional observations from a re-analysis of the deposited data

How the results depend on the processing

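With 2 arrays a group, the number of arrays limits every comparison. In the SET8 comparison 0 of the 44 genes were called by limma (Benjamini-Hochberg) under every alternative, the replicate block included, and likewise for Wnt3a. The block was shared with the SET8 shRNA arrays, whose numbers ran the other way. It therefore cannot decide what pairing the media arrays alone would give for Wnt3a, which was not tested. In the third comparison 0 were called, against 1 (IFI35) with the 4 arrays of the comparison alone, where 230 probe sets were called in place of 12, and 0 to 1 when single arrays were left out. With the replicate number as a block, 0 genes and 0 probe sets were called there, and UBE2L6 lost its unadjusted p under 0.05 for Wnt3a. The numbers of the SET8 arrays ran against those of the others, and a crossed pairing in the block, chosen after seeing the data, called 7 genes and 792 probe sets in the third comparison and 0 genes and 182 probe sets in the SET8 comparison. Other counts of probe sets called in the third comparison ran from 0 with no filter on dim probe sets to 52 with the filter at the 60th percentile. In the SET8 comparison they ran from 0 to 28, the latter with 4 arrays alone.

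Leaving out single arrays, the median of the 44 genes was -0.30 to -0.13 for SET8, -0.0645 to -0.0091 for Wnt3a and -0.25 to -0.18 for the third comparison. The Wnt3a median was -0.089 with median centring and -0.10 as the mean of all probe sets. That of the third comparison was -0.26 with quantile normalisation and -0.31 with median centring. No gene at an unadjusted p under 0.05 in the main model changed sign in that comparison under the alternatives that kept its main probe set. Over all 44 genes and these alternatives, the sign did change in some pairs of gene and alternative. This was so in 16 of 518 pairs for SET8, 35 of 484 for Wnt3a and 19 of 518 for the third comparison. The 3 higher genes of the third comparison lost their unadjusted p under 0.05 with no filter or with median centring. The cause was not tested.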
